A study of Homo sapiens with 8 samples.

Results

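The genes described here are 34 genes of the NRF2 pathway and of the defence against oxidative stress, chosen by symbol from a fixed list. All 34 were among the 26364 genes of the count table and all 34 were among the 14201 genes with enough counts to be tested. They were measured by RNA-Seq in LN229, a human glioblastoma cell line, in 2 stable lines that were each picked as a single G418-resistant clone and were kept under G418 in every group, controls included. Surv-GFP (clone D6) carries pcDNA3.1 with wild-type survivin tagged with eGFP, which without drug is found mainly in the cytoplasm. SurvNESmut-GFP (clone L2) carries the same fusion with an inactivated nuclear export sequence, which traps survivin in the nucleus. Cells of each clone either received no drug or were kept for 48 h in 50 µM temozolomide (TMZ), a methylating anticancer drug, and each of the 4 groups holds 2 libraries with the letters a and b. At this dose the study reported that the fusion in Surv-GFP also accumulated in the nucleus. The exposed clones are therefore not a plain comparison of cytoplasmic with nuclear survivin. Each construct is represented by 1 clone, so a difference between the clones cannot be told apart from a difference between the constructs. The figure legends of the study speak of independent biological replicates, each run in technical duplicate, without saying which of these the letters are, and p-values therefore measure the spread between letters, which may be technical.

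NRF2, the product of NFE2L2, is a transcription factor that is held down by KEAP1, an adaptor that hands it to a ubiquitin ligase for degradation. Oxidants and electrophiles disable KEAP1, NRF2 then enters the nucleus, pairs with a small MAF protein and binds antioxidant response elements (AREs) near genes for glutathione synthesis, thioredoxin reduction, NADPH supply, iron handling and the reduction of quinones and carbonyls. Because this control acts largely on the protein, the mRNA of NFE2L2 is not a measure of NRF2 activity, and protein was not analysed here.

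Gene counts per library summed to between 15826923 and 18861603. The 34 members took 0.653 to 0.656% of these counts in untreated Surv-GFP, 0.569 to 0.582% in TMZ-exposed Surv-GFP, 0.795 to 0.801% in untreated SurvNESmut-GFP and 0.810 to 0.832% in TMZ-exposed SurvNESmut-GFP, so that the 4 groups did not overlap. Levels are given as CPM, read counts scaled to a common library size by the TMM method. The shares above follow the most abundant members. With TMZ in SurvNESmut-GFP, FTH1 went from a mean of 984 to 1366 CPM and TKT from 1383 to 979 CPM. In the check of the labels, BIRC5, the survivin gene, for which counts of the transgene and of the cell's own copy were not separated, had 1152 and 1113 CPM in untreated Surv-GFP and 407 and 414 CPM in untreated SurvNESmut-GFP. After TMZ it had 1938 and 2029 CPM in Surv-GFP and 262 and 253 CPM in SurvNESmut-GFP. CDKN1A, the p53 target that arrests the cell cycle, went from 86.6 and 77.3 to 908 and 975 CPM in Surv-GFP and from 117 and 119 to 429 and 492 CPM in SurvNESmut-GFP. Of 12 glioma and astroglial markers, NES, VIM, CD44 and EGFR stood at or above 48.3 CPM in every library, whereas GFAP, AQP4 and SOX9 stayed at or below 0.921 CPM. The other 5 were present and, like NES, VIM, CD44 and EGFR, differed between the clones or with TMZ. S100B, an astroglial marker, had a mean of 777 CPM in untreated and 263 CPM in TMZ-exposed Surv-GFP, against 40.6 and 16.8 CPM in SurvNESmut-GFP. SLC1A3, a glial glutamate transporter, went from 13.3 to 3.55 CPM in Surv-GFP and from 8.16 to 30.5 CPM in SurvNESmut-GFP. In Surv-GFP without and with TMZ, the means were 90.7 and 54.4 CPM for SOX2, 33.98 and 17.3 for OLIG2, and 51.8 and 11.5 for PDGFRA. In SurvNESmut-GFP they were 34.4 and 19.6 CPM for SOX2, 6.94 and 6.81 for OLIG2, and 17.8 and 7.73 for PDGFRA. The clones thus differ in glial markers too, and the part of this in the members' clone differences was not tested. Of 9 markers of leukocytes, endothelium, epithelium and neurons, CD68 reached 21.4 CPM and SYP 3.33 CPM, and the other 7 stayed at or below 0.867 CPM.

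The letters TGACNNNGC, the core of the ARE, were searched on both strands in windows from 250 bases before to 50 bases after the start of each gene, taken from RefSeq (GRCh38.p14) and matched by symbol. Windows were given for 27 members, 39 windows in all, and 10 of these members (37.0%) held the core in at least 1 window, against 16.1% of the 27305 genes with a window. TGACTCA, the site of AP-1, was held by 4 of the 27 members (14.8%) and by 6.05% of all genes, and in 3 members (GSTP1, ME1 and PIR) it overlapped the core. The stretches around 6 cores that lie before the start are printed to show the element in genes that took different courses below, with the core in capitals, as read on the strand of the gene. Where the capitals begin with GC, the core lies on the opposite strand.
GCLM (chr1:93909431-93909490, - strand): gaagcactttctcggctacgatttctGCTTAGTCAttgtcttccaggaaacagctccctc
TXNRD1 (chr12:104286904-104286963, + strand): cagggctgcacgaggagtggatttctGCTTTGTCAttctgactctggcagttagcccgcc
ME1 (chr6:83431155-83431214, - strand): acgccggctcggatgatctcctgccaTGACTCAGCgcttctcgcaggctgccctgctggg
GSTP1 (chr11:67583720-67583779, + strand): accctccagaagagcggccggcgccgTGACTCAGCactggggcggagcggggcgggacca
PGD (chr1:10398837-10398896, + strand): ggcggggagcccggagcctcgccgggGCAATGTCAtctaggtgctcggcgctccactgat
CBR1 (chr21:36069839-36069898, + strand): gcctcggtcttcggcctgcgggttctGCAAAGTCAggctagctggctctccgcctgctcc
The windows given for NQO1, TKT, TALDO1, AKR1B1 and NFE2L2 did not hold these letters. HMOX1, FTH1, GSR, PRDX1, PRDX6, CBR3 and AKR1B10 had no window. A match of letters is a description of the sequence and not a binding site. Sequence farther than 250 bases before the start was not searched. A window without the letters therefore does not show that a gene lacks an ARE.

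After TMZ, 7 members rose and 15 fell in Surv-GFP, while 12 rose and 9 fell in SurvNESmut-GFP. A gene is counted as changed at a Benjamini-Hochberg adjusted p of 0.05 in edgeR's quasi-likelihood F test over all 14201 genes, and changes are log2 fold changes ± SE. Among all tested genes, 30.1% rose and 28.9% fell in Surv-GFP, against 20.6% and 44.1% of the members. In SurvNESmut-GFP 18.6% of all genes rose and 19.1% fell, against 35.3% and 26.5% of the members. The median change over the 34 members was -0.12 in Surv-GFP, where it was 0 over all genes, and 0.06 in SurvNESmut-GFP, where it was 0.0035 over all genes. The members therefore did not move as a block in either clone. In bulk RNA, fewer cells with a transcript and less transcript per cell cannot be told apart. Of the 12 rises in SurvNESmut-GFP, 7 (HMOX1, GSR, SRXN1, PGD, ME1, AKR1B1 and OSGIN1) were not called with DESeq2, and the same 7 were lost without untreated SurvNESmut-GFP replicate a, which left 5.

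**Figure D1:**
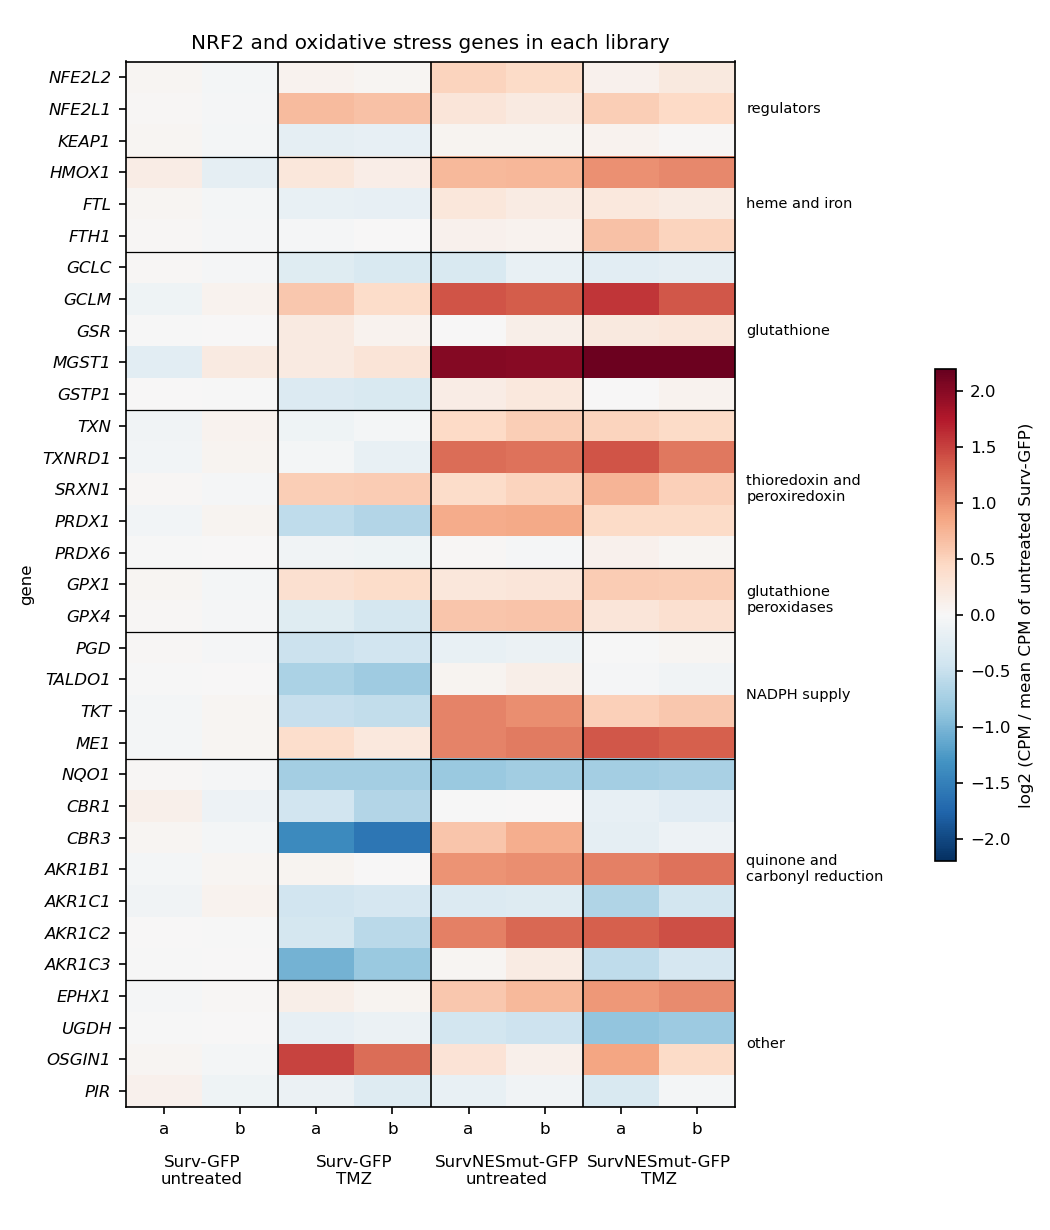
Heat map of 33 members in the 8 libraries, as log2 of the CPM over the mean CPM of untreated Surv-GFP, with the groups in columns and the roles of the genes in rows. AKR1B10 is left out because 1 library held no count. The 2 letters of a group resemble each other. MGST1, GCLM, TXNRD1, TKT, ME1, AKR1B1 and AKR1C2 lie above the mean of untreated Surv-GFP in all 4 SurvNESmut-GFP libraries. NQO1 lies below that mean in every library outside untreated Surv-GFP.

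Of the regulators, NFE2L1 rose after TMZ in each clone, NFE2L2 fell in SurvNESmut-GFP, and KEAP1 fell in Surv-GFP. NFE2L2, which encodes NRF2, had 119 and 113 CPM in untreated and 122 and 119.8 CPM in TMZ-exposed Surv-GFP. In SurvNESmut-GFP it had 164 and 156 CPM without and 124 and 135 CPM with TMZ. The untreated SurvNESmut-GFP libraries were thus the highest, and those of the other groups stood between 113 and 135 CPM. The TMZ effect was 0.06 ± 0.054, adjusted p = 0.38 in Surv-GFP and -0.30 ± 0.054, adjusted p = 3.1e-04 in SurvNESmut-GFP, and the effects differed by -0.36 ± 0.076, adjusted p = 0.0015 (SurvNESmut-GFP minus Surv-GFP, as in every difference below). The clone difference of 0.46 ± 0.054, adjusted p = 1.2e-06, without TMZ was 0.10 ± 0.054, adjusted p = 0.11, with TMZ.

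NFE2L1, a relative of NRF2 that drives proteasome genes and also binds AREs, had 380.2 and 371 CPM in untreated and 609 and 584 CPM in TMZ-exposed Surv-GFP. In SurvNESmut-GFP its values were 452 and 431 CPM without and 544 and 509.8 CPM with TMZ. Its rise was larger in Surv-GFP (0.67 ± 0.050, adjusted p = 7.4e-09) than in SurvNESmut-GFP (0.25 ± 0.050, adjusted p = 7.0e-04), with a difference of -0.41 ± 0.070, adjusted p = 2.2e-04. The order of the clones turned with this, from higher in SurvNESmut-GFP without TMZ (0.23 ± 0.050, adjusted p = 5.8e-04) to lower with TMZ (-0.18 ± 0.049, adjusted p = 0.0040). KEAP1 had 79.6 and 75.2 CPM in untreated Surv-GFP, 67.8 and 68.6 after TMZ, and 80.5 and 81.2 and then 81.3 and 78.6 CPM in SurvNESmut-GFP. The 2 TMZ-exposed Surv-GFP libraries were the lowest, a log2 change of -0.18 ± 0.053, adjusted p = 0.0069, against -0.02 ± 0.052, adjusted p = 0.84, in SurvNESmut-GFP. The call in Surv-GFP was lost without replicate a of untreated or of TMZ-exposed Surv-GFP (adjusted p up to 0.098), and the difference between the effects was not called (0.17 ± 0.074, adjusted p = 0.089).

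Among the genes of heme and iron handling, HMOX1 and FTL were higher in SurvNESmut-GFP without and with TMZ, and FTH1 with TMZ (0.57 ± 0.050). HMOX1, the heme oxygenase that frees iron from heme and a classical NRF2 target, had 11.1 and 8.67 CPM in untreated and 11.8 and 10.96 CPM in TMZ-exposed Surv-GFP, which overlap. It had 16.2 and 16.4 CPM in untreated and 19.8 and 20.7 CPM in TMZ-exposed SurvNESmut-GFP, so that all 4 libraries of this clone lay above all 4 of the other. The clone difference was 0.72 ± 0.12, adjusted p = 4.0e-05, without TMZ and 0.83 ± 0.11, adjusted p = 4.9e-06, with TMZ. The TMZ effect was 0.20 ± 0.12, adjusted p = 0.17, in Surv-GFP and 0.31 ± 0.10, adjusted p = 0.028, in SurvNESmut-GFP, where the call was lost with DESeq2 and without letter a or b of the untreated or letter b of the exposed libraries (adjusted p up to 0.13). The effect in Surv-GFP was called without its untreated replicate a (0.39, adjusted p = 0.029) and in no other alternative. The effects differed by 0.11 ± 0.16, adjusted p = 0.64. FTL and FTH1 encode the light and heavy chains of ferritin, which stores iron. FTH1 rose by 0.47 ± 0.050 in SurvNESmut-GFP, from 989 and 978 to 1436 and 1296 CPM, and had a TMZ effect of -0.01 ± 0.050 in Surv-GFP, a difference of 0.48 ± 0.071, adjusted p = 6.7e-05. FTL fell by 0.18 on the log2 scale in Surv-GFP (adjusted p = 0.0037), a call lost without its untreated replicate a (adjusted p = 0.074), and had a TMZ effect of -0.00 ± 0.046 in SurvNESmut-GFP. The TMZ effects on FTL differed by 0.17 ± 0.065, adjusted p = 0.0504, which was called in several alternatives, among them RLE size factors and DESeq2. Of the 50-base stretches of FTH1 in GENCODE v29, 78.7% also occur in another gene, most of all BEST1, so its counts are uncertain, and those of FTL (18.3%) less so.

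In glutathione metabolism, the subunits of glutamate-cysteine ligase, which makes the precursor of glutathione, took opposite courses in Surv-GFP. GCLM, the modifier subunit, had 36.04 and 40.7 CPM in untreated and 58.2 and 50.9 CPM in TMZ-exposed Surv-GFP, a rise of 0.51 ± 0.085, adjusted p = 7.1e-05. It had 100.3 and 96.5 CPM in untreated and 115 and 99.2 CPM in TMZ-exposed SurvNESmut-GFP, where the groups overlapped (0.12 ± 0.073, adjusted p = 0.21) and the effect was called only without TMZ-exposed replicate b (adjusted p = 0.0089). Every SurvNESmut-GFP library lay above every Surv-GFP library, by 1.36 ± 0.080, adjusted p = 3.1e-10, without TMZ and 0.97 ± 0.077, adjusted p = 1.0e-08, with TMZ. GCLC, the catalytic subunit, fell by 0.29 on the log2 scale in Surv-GFP (adjusted p = 0.0016) and had a TMZ effect of 0.04 ± 0.071 in SurvNESmut-GFP. The TMZ effects differed by -0.39 ± 0.11, adjusted p = 0.012, for GCLM and by 0.34 ± 0.100, adjusted p = 0.015, for GCLC. Leaving out replicate a of untreated Surv-GFP or of untreated SurvNESmut-GFP ended each of these calls, as did leaving out TMZ-exposed Surv-GFP replicate a for GCLM (adjusted p up to 0.093 for GCLM and 0.088 for GCLC).

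MGST1, a microsomal glutathione transferase, had the largest clone difference among the members with over 3 counts in each group. It had 4.82 and 6.46 CPM in untreated and 6.47 and 6.83 CPM in TMZ-exposed Surv-GFP, and 22.9 and 22.6 and then 25.02 and 25.1 CPM in SurvNESmut-GFP. The level was 4.04-fold higher in SurvNESmut-GFP without TMZ (2.01 ± 0.12, adjusted p = 2.9e-10) and 3.77-fold higher with TMZ (1.91 ± 0.11, adjusted p = 3.1e-10). Its TMZ effect was 0.24 ± 0.15, adjusted p = 0.18, in Surv-GFP and 0.14 ± 0.094, adjusted p = 0.27, in SurvNESmut-GFP, and the one in Surv-GFP was called without untreated Surv-GFP replicate b (0.46, adjusted p = 0.031). GSTP1, a cytosolic glutathione transferase, fell in each clone, by 0.31 on the log2 scale in Surv-GFP (adjusted p = 2.9e-05) and by 0.16 in SurvNESmut-GFP (adjusted p = 0.015). Its second call was lost with library size alone, without TMZ-exposed SurvNESmut-GFP replicate a and without untreated SurvNESmut-GFP replicate b (adjusted p up to 0.13). GSR, which regenerates reduced glutathione, had 78.9 to 94.4 CPM over all libraries, with a TMZ effect of 0.13 ± 0.058, adjusted p = 0.055, in Surv-GFP and 0.16 ± 0.057, adjusted p = 0.037, in SurvNESmut-GFP, the latter not called with DESeq2 or in a fit of the 4 libraries compared, nor without letter a or b of untreated Surv-GFP, untreated SurvNESmut-GFP replicate a or TMZ-exposed SurvNESmut-GFP replicate b (adjusted p up to 0.31).

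TXNRD1 and TXN were higher in SurvNESmut-GFP without and with TMZ, and neither had a called TMZ effect. TXNRD1, the reductase that keeps thioredoxin reduced, had 256 and 277 CPM in untreated and 260.0 and 239 CPM in TMZ-exposed Surv-GFP. In SurvNESmut-GFP it had 625 and 609 CPM without and 693 and 595 CPM with TMZ. The clones did not overlap, and the difference was 1.21 ± 0.067, adjusted p = 1.3e-10, without TMZ and 1.37 ± 0.067, adjusted p = 2.8e-11, with TMZ, a 2.32-fold and a 2.58-fold level. The TMZ effects had 95% intervals of -0.24 to 0.05 in Surv-GFP and -0.08 to 0.20 in SurvNESmut-GFP, and the one in SurvNESmut-GFP was called without TMZ-exposed SurvNESmut-GFP replicate b (0.17, adjusted p = 0.013). TXN, thioredoxin itself, was higher in SurvNESmut-GFP by 0.50 ± 0.058 without and 0.52 ± 0.059 with TMZ, and its TMZ effect was -0.06 ± 0.060, adjusted p = 0.37, in Surv-GFP and -0.04 ± 0.057, adjusted p = 0.57, in SurvNESmut-GFP.

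PRDX1, a peroxiredoxin that removes hydrogen peroxide with electrons from thioredoxin, fell in each clone. It had 239.9 and 258 CPM in untreated and 168 and 159 CPM in TMZ-exposed Surv-GFP (-0.61 ± 0.052, adjusted p = 4.0e-08). In SurvNESmut-GFP it had 436 and 444 CPM without and 333 and 333 CPM with TMZ (-0.40 ± 0.050, adjusted p = 8.9e-06). The 4 groups did not overlap, and the clone difference was 0.82 ± 0.050, adjusted p = 5.0e-10, without and 1.02 ± 0.052, adjusted p = 3.8e-11, with TMZ. The difference between the falls (0.20 ± 0.072, adjusted p = 0.037) was lost without letter b of untreated or TMZ-exposed Surv-GFP and without letter a or b of untreated SurvNESmut-GFP (adjusted p up to 0.21). Exons of MMACHC share 28.0% of the 50-base stretches of PRDX1. SRXN1, sulfiredoxin, which repairs overoxidised peroxiredoxins, rose by 0.55 ± 0.065 in Surv-GFP (adjusted p = 1.6e-06) and by 0.20 ± 0.063 in SurvNESmut-GFP (adjusted p = 0.019), a difference of -0.35 ± 0.090, adjusted p = 0.0061. Its call in SurvNESmut-GFP was lost with DESeq2, in a fit of the 4 libraries compared and without replicate a of untreated or of TMZ-exposed SurvNESmut-GFP (adjusted p up to 0.28), and 84.7% of its 50-base stretches also occur in another gene. PRDX6, a peroxiredoxin that uses glutathione, stayed between 202 and 232 CPM. Its one call in the fit of all libraries was a clone difference with TMZ (0.16 ± 0.048, adjusted p = 0.0060), lost without replicate a of either TMZ-exposed group. The filter of 1 CPM in 2 libraries added a fall in Surv-GFP. A higher TMZ effect in SurvNESmut-GFP was called with that filter, with RLE size factors and with library size alone.

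The glutathione peroxidases moved in opposite directions, and each in the same direction in both clones. GPX1, which reduces soluble peroxides, rose by 0.37 ± 0.048 in Surv-GFP (adjusted p = 5.0e-06) and by 0.30 ± 0.048 in SurvNESmut-GFP (adjusted p = 1.3e-04). GPX4, which reduces lipid peroxides in membranes and guards against ferroptosis, fell by 0.33 and by 0.31 on the log2 scale (adjusted p = 7.4e-05 in Surv-GFP and adjusted p = 2.4e-04 in SurvNESmut-GFP). GPX4 had 152 and 145 CPM in untreated and 123 and 114 CPM in TMZ-exposed Surv-GFP, and 227 and 229 and then 178 and 191 CPM in SurvNESmut-GFP. For neither gene was a difference between the effects called, with 95% intervals of -0.22 to 0.07 for GPX1 and -0.14 to 0.18 for GPX4. Both were higher in SurvNESmut-GFP without TMZ, by 0.25 ± 0.049 for GPX1 and 0.62 ± 0.053 for GPX4. With TMZ the clone difference was 0.64 ± 0.054 for GPX4 and 0.18 ± 0.048 for GPX1, and the latter was not called without TMZ-exposed Surv-GFP replicate a (adjusted p = 0.12). Of the 50-base stretches of GPX1, 20.3% also occur in its pseudogene GPX1P1, and its counts are uncertain to that extent.

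Among the genes of NADPH supply, the TMZ effects on PGD and TALDO1 differed between the clones, and for TKT and ME1 no difference was called. TKT, TALDO1 and PGD belong to the pentose phosphate pathway, and ME1 is the cytosolic malic enzyme. PGD, 6-phosphogluconate dehydrogenase, had 179.6 and 175 CPM in untreated and 127 and 132 CPM in TMZ-exposed Surv-GFP, and 159 and 162 and then 176 and 182 CPM in SurvNESmut-GFP. It was the only member that fell in the one clone (-0.45 ± 0.048, adjusted p = 5.4e-07) and rose in the other (0.16 ± 0.048, adjusted p = 0.016), and the effects differed by 0.61 ± 0.068, adjusted p = 3.6e-06. The rise was lost with DESeq2 and without letter a or b of untreated SurvNESmut-GFP (adjusted p up to 0.11), whereas the difference was called in all alternatives run. TALDO1, transaldolase, had 197.64 and 200.02 CPM in untreated and 122 and 116 CPM in TMZ-exposed Surv-GFP, and 208 and 217 and then 194 and 189 CPM in SurvNESmut-GFP. Its log2 change was -0.74 ± 0.050, adjusted p = 2.4e-09, in Surv-GFP and -0.15 ± 0.049, adjusted p = 0.026, in SurvNESmut-GFP, a difference of 0.59 ± 0.070, adjusted p = 6.9e-06. The smaller fall was lost with library size alone, in a fit of the 4 libraries compared and without letter b of untreated or of TMZ-exposed SurvNESmut-GFP (adjusted p up to 0.18).

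TKT, transketolase, had 648 and 681 CPM in untreated and 467 and 455 CPM in TMZ-exposed Surv-GFP. In SurvNESmut-GFP it had 1409.7 and 1356 CPM without and 958 and 999.7 CPM with TMZ, so that the exposed libraries of this clone still lay above the untreated ones of the other. It fell after TMZ in each clone (-0.53 ± 0.047, adjusted p = 6.5e-08, and -0.50 ± 0.046, adjusted p = 3.9e-07), with a 95% interval of -0.11 to 0.17 for the difference. ME1 had 22.2 and 23.7 CPM in untreated and 30.2 and 26.9 CPM in TMZ-exposed Surv-GFP, and 49.1 and 50.5 and then 59.5 and 57.4 CPM in SurvNESmut-GFP. It rose by 0.31 ± 0.078, adjusted p = 0.0025, in Surv-GFP and 0.23 ± 0.066, adjusted p = 0.011, in SurvNESmut-GFP, with a 95% interval of -0.30 to 0.13 for the difference. The first rise was lost without TMZ-exposed Surv-GFP replicate a (adjusted p = 0.054) and the second with DESeq2 and without untreated SurvNESmut-GFP replicate a (adjusted p up to 0.087). The clone difference was 1.06 ± 0.047, adjusted p = 8.0e-12, without and 1.09 ± 0.047, adjusted p = 6.8e-12, with TMZ for TKT, and 1.12 ± 0.073, adjusted p = 1.1e-09, and 1.03 ± 0.070, adjusted p = 1.5e-09, for ME1.

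NQO1 encodes the quinone reductase that is among the most used readouts of NRF2, and it set the untreated Surv-GFP libraries apart from all others. It had 932 and 904 CPM in untreated Surv-GFP. The other libraries lay close together, with 544 and 546 CPM in TMZ-exposed Surv-GFP, 524 and 539 CPM in untreated SurvNESmut-GFP and 546 and 557 CPM in TMZ-exposed SurvNESmut-GFP. TMZ lowered it to 0.594 of its level in Surv-GFP (-0.75 ± 0.044, adjusted p = 4.0e-10), while the effect in SurvNESmut-GFP was 0.05 ± 0.044, adjusted p = 0.36. The difference of 0.81 ± 0.063, adjusted p = 7.2e-08, was the one with the smallest p among the members. Without TMZ the level was lower in SurvNESmut-GFP (-0.79 ± 0.044, adjusted p = 1.7e-10), and with TMZ the clone difference was 0.02 ± 0.044, adjusted p = 0.73, with a 95% interval of -0.08 to 0.11. NQO1 thus ran against HMOX1, GCLM and TXNRD1, which were all higher in untreated SurvNESmut-GFP. It was not alone in this, as GCLC, PGD, AKR1C1 and UGDH were also lower there, 5 members in all against 20 higher. Of the 50-base stretches of NQO1, 18.1% also occur in another gene.

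**Figure D2:**
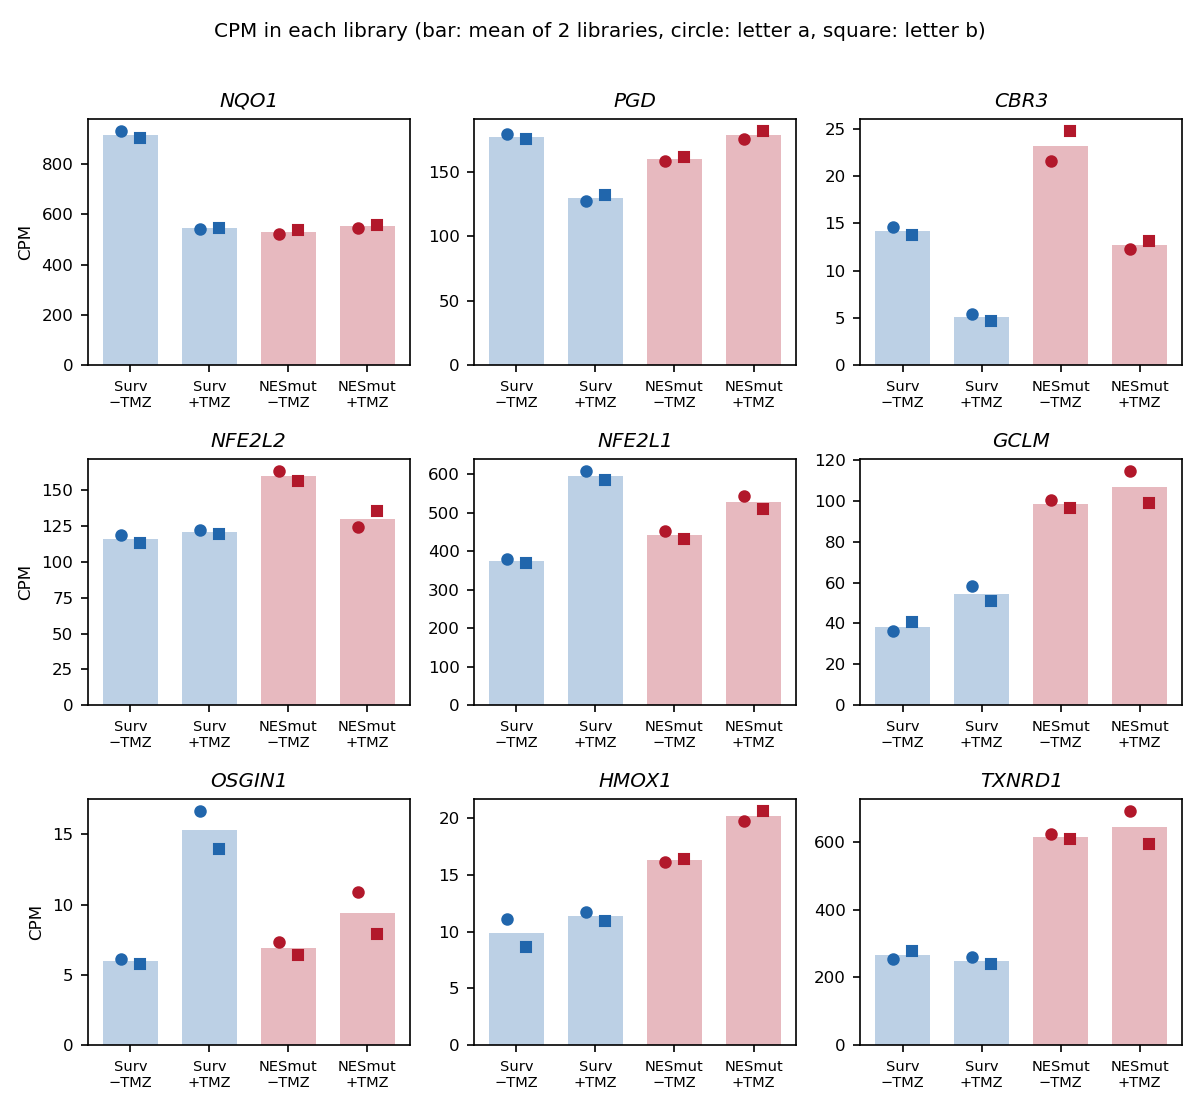
CPM of 9 members in each library, on axes that start at 0, with bars for the mean of the 2 libraries of a group, circles for letter a and squares for letter b. NQO1 stands at 904 and 932 CPM in untreated Surv-GFP and lower in the other groups, PGD is lowest in TMZ-exposed Surv-GFP, and GCLM, HMOX1 and TXNRD1 are higher in SurvNESmut-GFP with and without TMZ.

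Of the carbonyl reductases, which reduce quinones and other carbonyls with NADPH, CBR3 fell after TMZ in each clone and CBR1 in Surv-GFP. CBR3 had 14.6 and 13.8 CPM in untreated and 5.40 and 4.71 CPM in TMZ-exposed Surv-GFP, the largest fall of any member (-1.49 ± 0.13, adjusted p = 4.7e-08). In SurvNESmut-GFP it had 21.6 and 24.8 CPM without and 12.3 and 13.1 CPM with TMZ (-0.87 ± 0.10, adjusted p = 5.9e-06). The fall was larger in Surv-GFP, by 0.62 ± 0.17, adjusted p = 0.0086, and the clone difference widened from 0.71 ± 0.100 without to 1.33 ± 0.13 with TMZ. Of its 50-base stretches 35.7% also occur in CBR3-AS1, an antisense gene with a row of its own, and without the strand of the libraries their reads cannot be told apart. CBR1 fell by 0.52 on the log2 scale in Surv-GFP (adjusted p = 1.3e-04) and had a TMZ effect of -0.21 ± 0.091, adjusted p = 0.076, in SurvNESmut-GFP. The difference of 0.31 ± 0.13, adjusted p = 0.073, was called in 6 of 15 alternatives. Of the 50-base stretches of CBR1, 22.1% also occur in another gene, so its counts are uncertain too.

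The aldo-keto reductases, which reduce aldehydes, ketones and steroids, did not move together. AKR1B1, aldose reductase, had 180.1 and 189.9 CPM in untreated and 194 and 185 CPM in TMZ-exposed Surv-GFP. It had 366 and 375 CPM in untreated and 399 and 421 CPM in TMZ-exposed SurvNESmut-GFP, 2.004-fold and 2.16-fold the level of the other clone (1.003 ± 0.051, adjusted p = 4.8e-11, and 1.11 ± 0.051, adjusted p = 1.3e-11). Its TMZ effect in SurvNESmut-GFP (0.15 ± 0.050, adjusted p = 0.030) was lost with DESeq2, in a fit of the 4 libraries compared, and without letter a or b of the untreated or letter b of the exposed libraries (adjusted p up to 0.17). AKR1B10 was close to absent, with 0 and 1 counts in untreated and 17 and 6 in TMZ-exposed Surv-GFP, and 6 and 11 and then 47 and 37 counts in SurvNESmut-GFP. The ratio of the pooled counts, scaled for depth, was 5.46 after TMZ in SurvNESmut-GFP (exact 95% interval 3.22 to 9.81, for counting error only) and 23.3 in Surv-GFP (3.78 to 959), where it rests on 1 untreated count. The ratio of SurvNESmut-GFP to Surv-GFP was 17.1 without TMZ (2.67 to 713) and 4 with TMZ (2.5 to 6.65). All of these were called by edgeR except the difference between the TMZ effects (adjusted p = 0.28), and the call of the clone difference without TMZ was lost without untreated SurvNESmut-GFP replicate b, at an adjusted p just past the threshold. The AKR1B15 gene shares 11.6% of its 50-base stretches.

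AKR1C2 had 2.17 and 2.15 CPM in untreated and 1.66 and 1.43 CPM in TMZ-exposed Surv-GFP, against 4.66 and 5.17 and then 5.38 and 5.80 CPM in SurvNESmut-GFP. It was higher in SurvNESmut-GFP without (1.18 ± 0.19, adjusted p = 3.5e-05) and with TMZ (1.84 ± 0.20, adjusted p = 4.1e-07), and neither TMZ effect was called (-0.48 ± 0.24 in Surv-GFP and 0.18 ± 0.16 in SurvNESmut-GFP). AKR1C1, in contrast, was lower in untreated SurvNESmut-GFP (-0.29 ± 0.099, adjusted p = 0.017), a call lost without untreated Surv-GFP replicate b and without letter a or b of untreated SurvNESmut-GFP (adjusted p up to 0.15). AKR1C1 fell by 0.39 on the log2 scale after TMZ in Surv-GFP (adjusted p = 0.0029). Its effect in SurvNESmut-GFP was -0.24 ± 0.11, adjusted p = 0.089, and the effects differed by 0.16 ± 0.15, adjusted p = 0.44. AKR1C3 fell in each clone, by 0.93 (adjusted p = 1.1e-06) in Surv-GFP and 0.58 (adjusted p = 2.5e-04) in SurvNESmut-GFP. These genes are near copies of each other: 52.2% of the 50-base stretches of AKR1C2, 28.5% of those of AKR1C1 and 10.5% of those of AKR1C3 also occur in another member, so that their separate values are uncertain.

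Of the remaining members, OSGIN1, an oxidative stress response gene linked to growth inhibition, had the largest rise in Surv-GFP among members with over 3 counts in each group. It had 6.12 and 5.80 CPM in untreated and 16.7 and 13.9 CPM in TMZ-exposed Surv-GFP (1.36 ± 0.15, adjusted p = 7.8e-07). In SurvNESmut-GFP it had 7.32 and 6.45 CPM without and 10.9 and 7.94 CPM with TMZ (0.46 ± 0.16, adjusted p = 0.034). The rise was larger in Surv-GFP (-0.91 ± 0.22, adjusted p = 0.0042), and with TMZ the level in SurvNESmut-GFP was the lower one (-0.70 ± 0.14, adjusted p = 3.1e-04). The rise in SurvNESmut-GFP was lost with DESeq2, in a fit of the 4 libraries compared, without letter a or b of the untreated and without letter a of the exposed libraries (adjusted p up to 0.41). EPHX1, the microsomal epoxide hydrolase, rose by 0.35 ± 0.055 in SurvNESmut-GFP and had a TMZ effect of 0.09 ± 0.060 in Surv-GFP (adjusted p = 0.021 for the difference). UGDH, which makes UDP-glucuronic acid for conjugation, fell by 0.41 on the log2 scale in SurvNESmut-GFP and by 0.15 in Surv-GFP (adjusted p = 0.013 for the difference), and was the one member lower in SurvNESmut-GFP both without (-0.42 ± 0.053) and with TMZ (-0.68 ± 0.055). The difference for EPHX1 was lost without letter b of either Surv-GFP group and without untreated SurvNESmut-GFP replicate a (adjusted p up to 0.12). The one for UGDH was lost with DESeq2, without TMZ-exposed Surv-GFP replicate b and without untreated SurvNESmut-GFP replicate a (up to 0.096). The fall of UGDH in Surv-GFP was lost with DESeq2, without letter a or b of the untreated and without letter a of the exposed libraries (up to 0.15). PIR, an iron-binding nuclear protein gene, had 4.56 to 6.12 CPM and was not called in any of the 5 comparisons.

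Set side by side over both clones, which share no library in these effects, 6 members rose in each (NFE2L1, SRXN1, GPX1, ME1, AKR1B10 and OSGIN1) and 8 fell in each (GSTP1, PRDX1, GPX4, TALDO1, TKT, CBR3, AKR1C3 and UGDH). These are 17.6% and 23.5% of the members, against 11.7% and 11.9% of all tested genes. AKR1B10 is among the 6 although untreated Surv-GFP held only 0 and 1 counts of it. The 6 shared rises were 3 (8.82%) without untreated SurvNESmut-GFP replicate a and with DESeq2, where SRXN1, ME1 and OSGIN1 were lost, against 8.75% and 8.39% of all genes. They were also 3 in fits of the 4 libraries compared, where SRXN1 and OSGIN1 were lost and AKR1B10 had too few counts to be tested in Surv-GFP (11.6% of all genes). A further 6 (MGST1, TXN, TXNRD1, PRDX6, AKR1C2 and PIR) were called in neither clone. The test of the difference between the effects called 14 members. In 8 of them (23.5%, against 16.6% of all genes) the TMZ effect was higher, that is more positive or less negative, in SurvNESmut-GFP: NQO1, PGD, TALDO1, FTH1, CBR3, GCLC, EPHX1 and PRDX1. In 6 (17.6%, against 20.2%) it was lower there: NFE2L1, NFE2L2, OSGIN1, SRXN1, GCLM and UGDH. The median difference of the members was 0.15 on the log2 scale. The count of 8 was 5 without untreated SurvNESmut-GFP replicate a, where GCLC, PRDX1 and EPHX1 were lost, and 14 with library size alone or with a filter of 1 CPM in 2 libraries, where 20.5% and 20.8% of all genes had a higher effect and 16.8% and 18.5% a lower one.

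**Figure D3:**
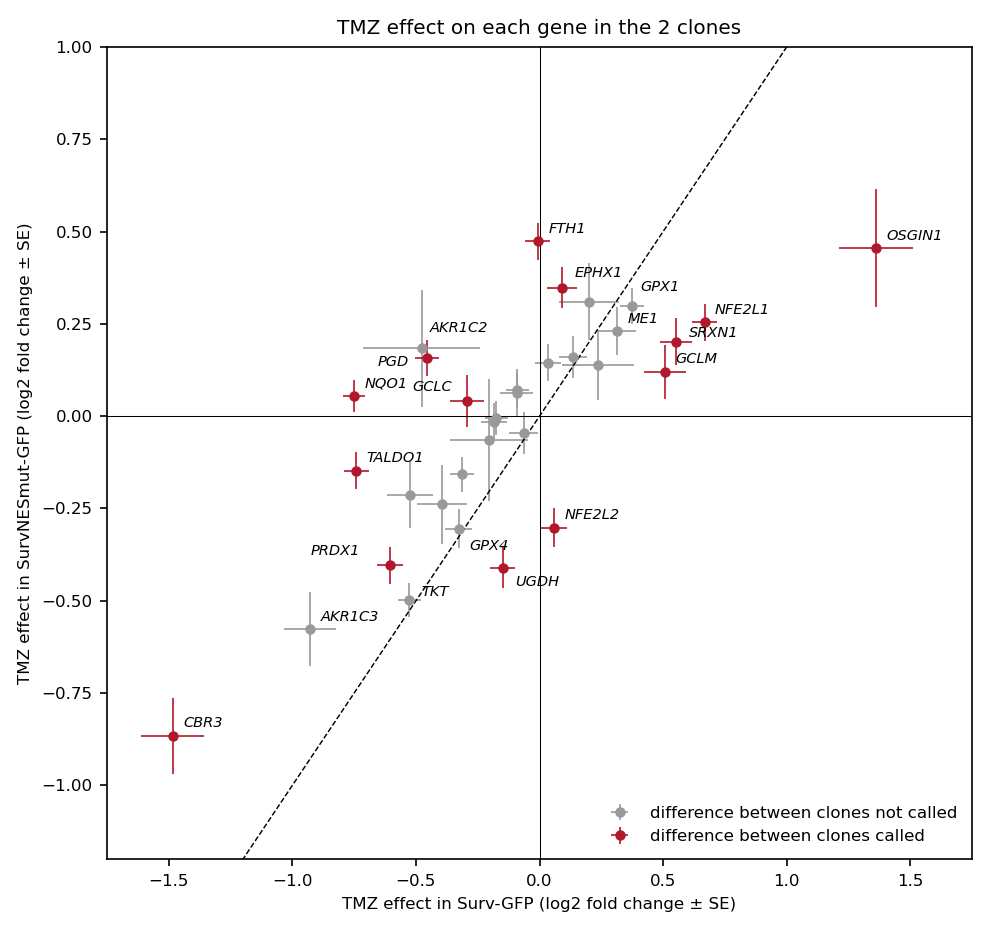
TMZ effect on 33 members (AKR1B10 left out) as log2 fold change ± SE, in Surv-GFP on the horizontal and in SurvNESmut-GFP on the vertical axis, with a dashed line of equal effects. The axes span different ranges. The 14 members whose effects differed between the clones by the test are in red, with NQO1, PGD, TALDO1, FTH1 and CBR3 above the line and OSGIN1, NFE2L1 and NFE2L2 below it.

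The clone difference leaned towards SurvNESmut-GFP. Without TMZ, 20 members (58.8%) were higher and 5 (14.7%) lower in SurvNESmut-GFP, against 34.7% and 29.4% of all tested genes, and with TMZ 24 (70.6%) were higher and 3 (8.82%) lower, against 34.5% and 34.7%. The median clone difference of the members was 0.24 without and 0.46 with TMZ, and that of all genes was 0.03 and -0.00053. These comparisons share no library with each other, but each uses libraries of a TMZ effect. In both, 17 members (50.0%, against 25.1% of all genes) were higher: HMOX1, FTL, GCLM, MGST1, GSTP1, TXN, TXNRD1, PRDX1, GPX1, GPX4, TKT, ME1, CBR3, AKR1B1, AKR1B10, AKR1C2 and EPHX1. They span all roles except the regulators. AKR1B10 is among them, and among the 20 and the 24, although Surv-GFP held few counts of it (0 and 1 without, 17 and 6 with TMZ). The 5 lower members without TMZ were GCLC, PGD, NQO1, AKR1C1 and UGDH, of which only NQO1 and UGDH remained called without untreated SurvNESmut-GFP replicate a. With TMZ the 3 lower ones were UGDH, OSGIN1 and NFE2L1. KEAP1, FTH1, PRDX6, TALDO1, CBR1 and AKR1C3 were called higher with TMZ and not without, and for CBR1 (0.31 ± 0.096, adjusted p = 0.0090) the call was lost without TMZ-exposed Surv-GFP replicate b or SurvNESmut-GFP replicate a (adjusted p up to 0.12).

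**Figure D4:**
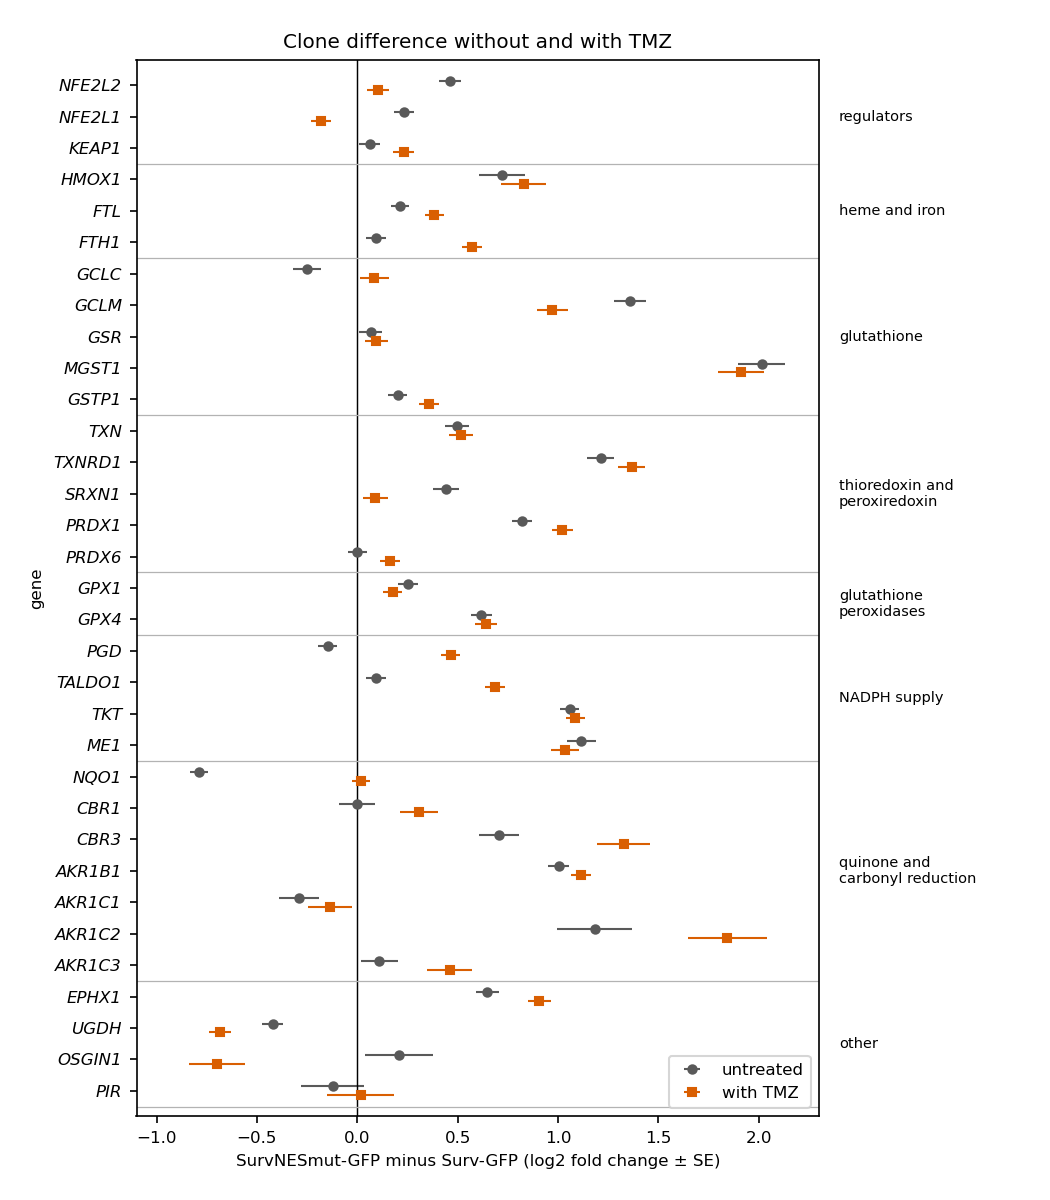
Clone difference (SurvNESmut-GFP minus Surv-GFP) of 33 members (AKR1B10 left out) as log2 fold change ± SE, without TMZ (circles) and with TMZ (squares), ordered by role. Most points lie above 0, MGST1 has the largest difference in both, and NQO1 moves from -0.79 without TMZ to 0.02 with TMZ.

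Other genes of the pathway were taken from 3 further lists. Of 19 genes that control or partner NRF2, 10 rose and 6 fell after TMZ in Surv-GFP, and 1 rose and 4 fell in SurvNESmut-GFP. The rises were 52.6% of the list in Surv-GFP and 5.26% in SurvNESmut-GFP, against 30.1% and 18.6% of all tested genes, and the falls 31.6% and 21.1%, near the 28.9% and 19.1% of all genes. For 9 of them (47.4%, against 20.2% of all genes) the TMZ effect was lower in SurvNESmut-GFP, and for 1 (5.26%, against 16.6%) it was higher. SQSTM1, which encodes p62, an adaptor that sequesters KEAP1, rose from a mean of 386 to 1225 CPM in Surv-GFP (1.67 ± 0.046) and had 579 and then 584 CPM in SurvNESmut-GFP (0.01 ± 0.045), a difference of -1.65 ± 0.064, adjusted p = 2.5e-11. The small MAF genes MAFK, MAFF and MAFG, whose proteins pair with NRF2, rose in Surv-GFP by 2.01 ± 0.065, 1.37 ± 0.059 and 1.10 ± 0.052, and had TMZ effects of -0.11 ± 0.052, 0.02 ± 0.054 and -0.01 ± 0.054 in SurvNESmut-GFP. MAFK stood at a mean of 18.6 CPM in untreated Surv-GFP, below the 74.6 to 106 CPM of the other groups. MAFF likewise stood at 41.1 CPM there, below the 106 to 107 CPM of the other groups. MAFG differed from this, with 136 CPM in untreated and 291 CPM in TMZ-exposed Surv-GFP, and 129 and 128 CPM in SurvNESmut-GFP. SYVN1, a ubiquitin ligase of the endoplasmic reticulum, rose by 1.06 ± 0.053 in Surv-GFP and had an effect of 0.06 ± 0.054 in SurvNESmut-GFP (adjusted p = 5.2e-08 for the difference). Between the clones, 10 of the 19 were higher and 2 lower in SurvNESmut-GFP without TMZ (52.6% and 10.5%, against 34.7% and 29.4% of all genes). With TMZ 8 were higher and 7 lower (42.1% and 36.8%, against 34.5% and 34.7%).

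Of 29 other NRF2 targets, 20 were tested, of which 5 rose and 7 fell after TMZ in Surv-GFP and 7 rose and 2 fell in SurvNESmut-GFP. In Surv-GFP these were 25% and 35%, near the 30.1% and 28.9% of all genes, and in SurvNESmut-GFP 35% and 10%, against 18.6% and 19.1%. SLC7A11, the cystine importer that feeds glutathione synthesis, rose by 1.19 ± 0.084 in Surv-GFP and 1.004 ± 0.083 in SurvNESmut-GFP (adjusted p = 0.24 for the difference). BLVRB, a biliverdin reductase, rose by 1.05 ± 0.091 and 0.58 ± 0.093. IDH1, the cytosolic isocitrate dehydrogenase that makes NADPH, rose in Surv-GFP (0.81 ± 0.058) and had an effect of 0.13 ± 0.061 in SurvNESmut-GFP (-0.67 ± 0.084, adjusted p = 1.1e-05). GSTM4, a glutathione transferase, and ABCC4, an efflux pump, fell in Surv-GFP by 0.71 and 0.35 on the log2 scale, with differences of 0.64 ± 0.12 and 0.46 ± 0.10. Between the clones, 9 of the 20 were higher and 6 lower in SurvNESmut-GFP without TMZ, and 12 were higher and 4 lower with TMZ. These were 45% and 30% without TMZ, against 34.7% and 29.4% of all genes, and 60% and 20% with TMZ, against 34.5% and 34.7%.

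Of 37 further genes of peroxide and thiol metabolism, 34 were tested, of which 8 rose and 12 fell after TMZ in Surv-GFP and 6 rose and 8 fell in SurvNESmut-GFP. These shares, 23.5% and 35.3% in Surv-GFP and 17.6% and 23.5% in SurvNESmut-GFP, were near those of all genes (30.1% and 28.9%, and 18.6% and 19.1%). GLRX2, a mitochondrial glutaredoxin, rose by 2.51 ± 0.076 in Surv-GFP and 0.75 ± 0.082 in SurvNESmut-GFP (-1.76 ± 0.11, adjusted p = 9.1e-09). SLC3A2, the heavy chain that pairs with SLC7A11, rose in Surv-GFP from a mean of 212 to 786 CPM (1.89 ± 0.050) and had 709 and 722 CPM in SurvNESmut-GFP (0.03 ± 0.048). SOD2, the mitochondrial superoxide dismutase, rose in Surv-GFP from a mean of 27.2 to 55.7 CPM (1.03 ± 0.11). In SurvNESmut-GFP it had 57.2 CPM without and 56.4 CPM with TMZ (-0.02 ± 0.10). TXNIP, which binds and inhibits thioredoxin, rose more in SurvNESmut-GFP (1.15 ± 0.073) than in Surv-GFP (0.46 ± 0.069; adjusted p = 5.9e-05 for the difference). In this list 12 genes were higher and 9 lower in SurvNESmut-GFP without TMZ, and 13 were higher and 14 lower with TMZ (35.3% and 26.5%, then 38.2% and 41.2%), against 34.7% and 29.4%, then 34.5% and 34.7% of all genes.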

How the data were processed

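The authors isolated total RNA from the 4 groups and had it sequenced by Illumina, and all 8 libraries were grouped by clone, exposure and letter from their sample labels. Raw counts are deposited, as whole numbers of reads for each gene symbol. STAR 2.5.0b, Cufflinks 2.2.1 and edgeR are named in the submitters' processing notes, and for the counting program, annotation, genome build and strand setting no entry was given in the sources used here. The 5 comparison tables of the authors (fold change and mean CPM on the log2 scale, F statistic, p-value, FDR) were not used.

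The analysis used edgeR 4.0.16 and limma 3.58.1 under R 4.3.3. A single model of the 4 groups took all 8 libraries, with TMM scaling, filterByExpr by group and the legacy quasi-likelihood F test. Left out were 2 rows without a gene, which held 11.2 to 14.3% and 1.19 to 1.28% of all counts, these rows included. P-values were adjusted over 14201 genes by Benjamini-Hochberg and called at 0.05. The SE is the size of the log2 fold change over the root of F. The libraries of a group differed by more than sampling noise (chi-square of 2.16 to 5.54 per degree of freedom). A library without a count of a gene still allows up to 3 counts, and intervals of count ratios cover counting error only. The fit was tested on simulated data.

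The members, the lists and the tests were chosen with earlier results of these data known. Values per library were given for HMOX1, NQO1, NFE2L1, NFE2L2, KEAP1 and every member called with a log2 fold change of at least 1 in size in any comparison, and for a few others whose groups are discussed. From the other lists, the 4 genes per list with the smallest p of the difference between TMZ effects and those with a called TMZ effect of at least 1 were named. A gene that this rule names is not reported here. Alternatives were RLE size factors, library size alone, no filter, a filter of 1 CPM in 2 libraries, DESeq2 1.42.0, the quasi-likelihood method of edgeR 4, a replicate term, fits of only the 4 libraries compared, and leaving out 1 library at a time. Shared sequence was counted as 50-base stretches of each gene's transcript that occur in another gene of GENCODE v29.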

Additional observations from a re-analysis of the deposited data

Results flagged for a closer look

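For 14 members the test of the difference itself found that the TMZ effect was not the same in SurvNESmut-GFP and Surv-GFP (edgeR, adjusted over all tested genes). On the log2 scale, as SurvNESmut-GFP minus Surv-GFP, the difference was 0.81 for NQO1, 0.62 for CBR3, 0.61 for PGD, 0.59 for TALDO1, 0.48 for FTH1, 0.34 for GCLC, 0.26 for EPHX1 and 0.20 for PRDX1. It was -0.91 for OSGIN1, -0.41 for NFE2L1, -0.39 for GCLM, -0.36 for NFE2L2, -0.35 for SRXN1 and -0.26 for UGDH. The differences of NQO1, PGD, TALDO1, FTH1, CBR3, OSGIN1, NFE2L1, NFE2L2 and SRXN1 were called in all 15 alternatives run, and those of the other 5 in 10 to 13 of them. Each rests on 1 clone per construct, so the construct and the clone cannot be told apart. With 2 libraries a group, no test for a single library that stands apart was made.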

How the results depend on the processing

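No called member changed direction in any alternative, and 2573 of 2683 values of the members kept their side of the threshold. The count of members that rose in SurvNESmut-GFP was 5 with DESeq2 in place of 12. The count with a higher TMZ effect in SurvNESmut-GFP was 14 in place of 8 with library size alone, where all genes went from 2355 higher and 2871 lower to 2909 and 2385, and 14 with the filter of 1 CPM in 2 libraries (2815 and 2493). The causes were not tested. Leaving out 1 library at a time gave 5 to 12 members that rose in SurvNESmut-GFP, 5 to 12 with a higher TMZ effect there and 2 to 5 that were lower in untreated SurvNESmut-GFP. The lowest count of each came without untreated SurvNESmut-GFP replicate a. For the other lists it gave 3 to 6 NRF2 regulators and 5 to 10 other NRF2 targets called after TMZ in SurvNESmut-GFP (lowest without untreated SurvNESmut-GFP replicate b), and 9 to 15 peroxide and thiol genes with differing TMZ effects (lowest without untreated Surv-GFP replicate a or untreated SurvNESmut-GFP replicate b). A fit that leaves a group with 1 library assumes that it varies like the others. The clone difference of SOD2 with TMZ, 0.01 in all libraries, ran from -0.23 without TMZ-exposed SurvNESmut-GFP replicate b to 0.16 without replicate a of that group.

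Whether the same letter in different groups marks a pair is not stated in the labels. The differences between letters a and b correlated between groups at -0.0671 to 0.0832 over all tested genes. Counting noise in genes with few counts weakens such correlations, so they do not settle the pairing. With the letter as a replicate block, 7 members instead of 8 had a higher TMZ effect in SurvNESmut-GFP, the call of PRDX1 being lost, and no other call of a member changed. With 2 libraries a group, small effects are the least certain.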
